A study of Mus musculus with 6 samples.

Results

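The olfactory receptor gene clusters of the mouse were examined as 585 promoter regions of a MeDIP promoter array, out of 22584 regions on the array that were tested. The regions were defined by position, as runs of at least 3 array probes with starts at most 500 bp apart, inside 6 windows of mm9. Windows on chromosomes 2, 9 and 10 held 231, 103 and 49 regions and were taken as class II. A set of 3 windows on chromosome 7, here called A, B and C from the lower to the higher coordinate, held 126, 29 and 47 regions and was taken as rich in class I. In mm9 the class II windows were chr2:85150000-90150000, chr9:37500000-39900000 and chr10:128500000-129500000, and windows A, B and C were chr7:109650000-112000000, chr7:113700000-114400000 and chr7:114900000-116050000. The files pair no region with a gene, exon or intron. The rule itself uses positions and no level, but the windows were chosen with earlier results of these data known. The windows held 4216 probes, of which 4115 lay in the 585 regions and 81 lay in 54 runs too short to be tested, and 20 others were left out as outlier spots.

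The DNA came from adipose tissue of female C57BL/6J offspring at 32 weeks of age. In the LC group the dams were fed a low chromium diet through gestation and lactation, and the offspring received the control diet after weaning. In the CC group dams and offspring received the control diet throughout, and each group had 3 mice with 1 array per mouse. DNA enriched with an antibody against 5-methylcytidine (MeDIP) was labeled with Cy5 and untreated input DNA of the same mouse with Cy3, on every array and without a dye swap. The level of a region is its mean over probes of log2(MeDIP/input), centered on the median of all probes of that array, so that a level below 0 stands for less MeDIP DNA per input DNA than at the median probe. The comparison asks whether the maternal diet left a difference at these promoters in adult fat.

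Olfactory receptors are G protein-coupled receptors of the sensory neurons of the nose, and each neuron uses a single receptor gene and keeps the others silent. Class I receptors, related to those of fish, bind mostly water-soluble odorants and lie in a single cluster beside the beta-globin genes, while class II receptors, for mostly volatile odorants, lie in many clusters. Outside the nose most of these genes are silent, although single members have been described in other tissues. Their promoters are poor in CG dinucleotides (CpG), the main site of DNA methylation, and MeDIP signal depends on how many methylated CpG a fragment carries, so that a low MeDIP level in CpG-poor DNA does not by itself stand for unmethylated CpG. Since DNA and not RNA was measured, the tissue could not be checked against marker genes.

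The class labels were set beside the order of genes in the RefSeq table of GRCm38.p6, a later build than that of the array. There, genes named Olfr on chromosome 7 fell into 5 runs. A run from Olfr543 to Olfr692 had 158 Olfr genes, of which 149 were class I by their MOR family number, 0 were class II and 9 had no such number. It also held 27 other protein-coding genes, among them 5 named Hbb (beta-globins) and 12 named Trim. The following run, from Olfr693 to Olfr716, had 28 Olfr genes with 25 of class II and 0 of class I, and the one after it, from Olfr467 to Olfr519, had 52 with 46 of class II and 2 of class I. The array windows A, B and C also follow each other on chromosome 7, with 126, 29 and 47 regions, but a position on one build could not be carried to the other. The label class I-rich is therefore borne out by the gene table for a single run only, and windows B and C are given separately from A. On chromosomes 2, 9 and 10 the longest runs had 293, 127 and 69 Olfr genes, of which 256, 113 and 63 were class II.

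To show how little CpG such promoters hold, RefSeq sequences of GRCm38.p6 are given for the 200 bases before the gene start, with each CpG in capitals. They are not the array regions, which could not be paired with genes. Each set holds all promoters of its class on a chromosome, including those of clusters outside the array windows. The first sequences are the promoters of median GC content of each set: Olfr586, a class I gene at chr7:103122783-103122982 on the minus strand, Olfr1031 at chr2:85991619-85991818, Olfr836 at chr9:19120757-19120956 and Olfr789 at chr10:129486812-129487011, class II genes on the plus strand.
Olfr586: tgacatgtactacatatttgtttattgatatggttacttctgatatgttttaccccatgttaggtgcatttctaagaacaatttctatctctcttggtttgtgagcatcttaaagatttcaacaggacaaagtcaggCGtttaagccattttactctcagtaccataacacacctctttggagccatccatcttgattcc
Olfr1031: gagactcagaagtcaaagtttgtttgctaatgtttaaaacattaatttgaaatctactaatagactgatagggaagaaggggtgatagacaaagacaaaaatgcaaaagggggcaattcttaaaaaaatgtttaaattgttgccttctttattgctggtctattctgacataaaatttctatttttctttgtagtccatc
Olfr836: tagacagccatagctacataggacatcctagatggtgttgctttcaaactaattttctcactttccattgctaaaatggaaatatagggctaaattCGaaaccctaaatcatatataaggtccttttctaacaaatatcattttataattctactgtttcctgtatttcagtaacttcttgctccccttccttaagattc
Olfr789: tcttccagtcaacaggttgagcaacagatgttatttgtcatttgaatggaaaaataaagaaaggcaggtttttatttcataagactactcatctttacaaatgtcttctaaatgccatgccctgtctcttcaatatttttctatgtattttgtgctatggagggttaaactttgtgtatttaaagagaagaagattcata

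The promoters with the most CpG among the class I genes of chromosome 7 and among the class II genes of chromosomes 2, 9 and 10 were Olfr550, at chr7:102578269-102578468 on the plus strand, with 3 CpG, and Olfr1290, at chr2:111493816-111494015 on the minus strand, with 4 CpG. By their coordinates, although on another build, Olfr836 and Olfr1290 lie far outside the array windows of chromosomes 9 and 2.
Olfr550: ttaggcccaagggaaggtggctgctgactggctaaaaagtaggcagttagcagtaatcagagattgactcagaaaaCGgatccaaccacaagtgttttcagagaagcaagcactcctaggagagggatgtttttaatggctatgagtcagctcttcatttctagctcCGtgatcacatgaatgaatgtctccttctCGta
Olfr1290: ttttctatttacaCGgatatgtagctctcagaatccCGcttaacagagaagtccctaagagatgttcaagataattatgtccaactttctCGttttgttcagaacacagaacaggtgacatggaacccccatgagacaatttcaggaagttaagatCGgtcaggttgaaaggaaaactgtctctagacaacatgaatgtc

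Over 106 class I promoters of chromosome 7 the median GC content was 36.5%, and over the class II promoters of chromosomes 2, 9 and 10 it was 31.0%, 33.5% and 32.5% (237, 110 and 54 promoters), and 35.0% over the 97 class II promoters of chromosome 7, against 53.5% over the 31903 promoters of other genes in the table. No CpG at all was found in 49.1% of the class I promoters in 59.6% of the 401 class II promoters of chromosomes 2, 9 and 10 and in 51.5% of those of chromosome 7, against 10.6% of all promoters. The gene start was directly at an ATG in 76.4% of class I genes and 73.6% of the class II genes of chromosomes 2, 9 and 10, against 5.83% of all, so that for most of these genes the table begins at the coding sequence and the printed bases may lie downstream of the true promoter. The letters TAATTA, a core of homeodomain binding sites that reads the same on both strands, occurred in 11.3% of class I promoters, in 19.5% of the class II promoters of chromosomes 2, 9 and 10 and in 11.3% of those of chromosome 7, against 3.73% of all promoters of this length. The letters CCCNNGGG, the core bound by Ebf factors and also the same on both strands, occurred in 2.83%, 2.24%, 5.15% and 9.91% of the same sets. Such a match is a description of the letters and not a site. TAATTA holds only A and T and CCCNNGGG fixes only C and G, and the difference in GC content between the sets was not taken into account. All these shares cover whole chromosomes and not the windows alone.

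The base composition of the array regions themselves was not read, and probe length stands here as an indirect sign of it. Probes on this array were 45 to 60 bases long, and longer probes are as a rule placed where DNA is rich in A and T. The median of the mean probe length was 55.5 bases over the 585 regions, ranging from 53.2 in window A of chromosome 7 to 56.5 on chromosome 2, and it was 48.4 in the 21999 regions outside the windows. Probes of the full 60 bases were 47.2% of the probes in the regions (35.2% in window A, 54.6% on chromosome 2) and 12.2% of those outside. Levels were therefore also set beside 1472 regions outside the windows with a mean probe length of at least 55 bases, here called long-probe regions, and beside 238 regions within 1 Mb of a window. Only the windows themselves were left out of these sets and of the regions outside, so that each may hold olfactory promoters of other clusters.

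Relative to the median of all probes, the olfactory regions had low MeDIP levels in both groups. On the CC arrays the median level over the 585 regions was -0.71, -0.59 and -0.60 for replicates 1 to 3, with a mean of -0.64 ± 0.07 (SD, n = 3). On the LC arrays it was -0.37, -0.52 and -0.48, with a mean of -0.46 ± 0.08 (SD, n = 3). All arrays lay well under the regions outside the windows, whose mean was -0.14 in both groups, and the median olfactory region lay at percentile 23.9 of all regions in CC. The LC and CC arrays did not overlap. Long-probe regions elsewhere lay lower still, at -0.85 ± 0.06 in CC and -0.65 ± 0.09 in LC (SD, n = 3), and regions within 1 Mb of a window at -0.31 in CC and -0.29 in LC. Set against probes of the same length instead, the CC medians were 0.085 in the chromosome 7 windows and 0.28 in the class II windows, and after loess they were -0.062 and 0.11, so that the sign of the level depends on the scaling. With 3 arrays per group, these means carry limited precision.

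The windows kept a similar order on the arrays. In CC, window C of chromosome 7 was lowest with -0.90, -0.69 and -0.72, and it was also the lowest window on each LC array with -0.51, -0.62 and -0.65. Chromosome 10 (-0.67 ± 0.06), chromosome 2 (-0.66 ± 0.09) and window A of chromosome 7 (-0.61 ± 0.06) followed, with differences between the CC means of neighbors among these 3 under the SD of either. The highest were window B of chromosome 7 and chromosome 9, both at -0.52, with SDs of 0.11 and 0.07. The windows share their arrays, and window A lay above chromosomes 2 and 10 on each of the 6 arrays, the smallest gap being on LC replicate 2 for chromosome 10 (-0.51 and -0.53) and on CC replicate 2 for chromosome 2 (-0.59 and -0.60). This difference between windows was not tested.

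**Figure D1:**
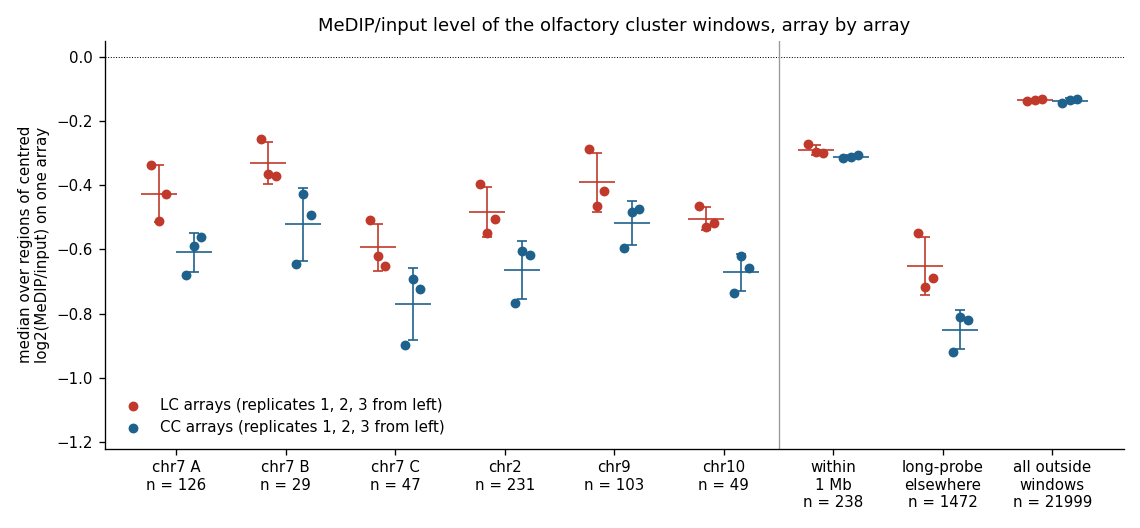
Median centered log2(MeDIP/input) over the regions of each olfactory window and of 3 comparison sets, on each array; points are arrays, horizontal bars are means and whiskers are SD over 3 arrays. In each of the 6 windows the 3 LC arrays lie above the 3 CC arrays, as they do in the long-probe regions, while the regions outside the windows overlap near -0.14.

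Within the clusters single promoters varied far more than the windows did. Over the 585 regions the CC mean ranged from -3.01 to 1.11, with an SD over regions of 0.60, and its 10th and 90th percentiles were -1.42 and 0.11. Only 82 regions (14.0%) were above 0, with 34 on chromosome 2, 17 each on chromosome 9 and in window A, 7 on chromosome 10, 4 in window B and 3 in window C, against 40.5% of all regions tested. This order of regions was stable between mice. Across the 585 regions the CC arrays correlated with each other at 0.976 to 0.985 and the LC arrays at 0.948 to 0.962, as a description over regions that share arrays. Over all regions tested the correlations were higher, at 0.993 to 0.994 in CC and 0.977 to 0.990 in LC. The SD over all regions was also larger, at 0.79. Neighboring regions, at a median gap of 13.6 kb to 21.7 kb between starts by window, resembled each other little in level, with a correlation between -0.11 and 0.17 in every window. High and low promoters were thus mixed along the clusters.

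**Figure D2:**
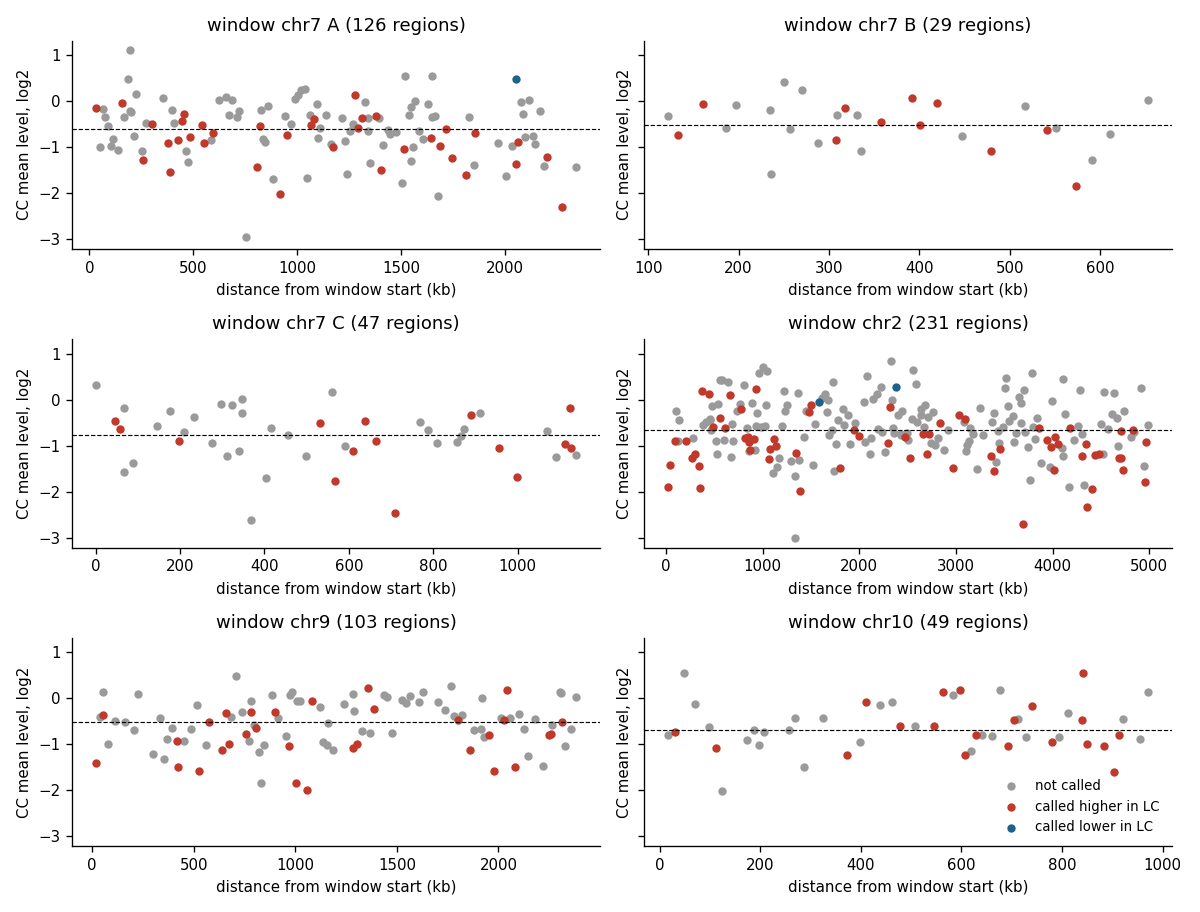
Mean CC level of each region, in log2(MeDIP/input), against its distance from the start of its window in kb, with the window's median as a dashed line; colors mark the limma call between LC and CC. Regions of low and high level lie side by side in each window, the lowest region being at -3.01 on chromosome 2 and at -1.84 in window B. Regions called higher in LC (red) occur along the whole length of each window.

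The regions with the highest and the lowest CC level in each window show these extremes. On chromosome 2, chr2:87475415-87476260 had 0.70, 0.86 and 0.99 on the CC arrays and 1.16, 0.98 and 1.05 on the LC arrays, while chr2:86479387-86479856 had -3.09, -2.87 and -3.08 in CC and -2.68, -2.86 and -2.88 in LC. In window A, chr7:109846757-109847206, the highest of all 585 and tiled with the shortest probes, had 1.1, 1.16 and 1.06 in CC and 0.81, 1.02 and 0.91 in LC. Further along the window, chr7:110400534-110402079 had -3.06, -2.89 and -2.93 in CC and -2.74, -2.81 and -2.83 in LC. At each of these regions the range over the 6 arrays was small beside the gap between the highest and the lowest region of its window. None of the 4 regions passed the test between LC and CC (limma adjusted p of 0.0719, 0.0725, 0.0526 and 0.0668). All 3 probes of chr2:86479387-86479856 were not well above background in the MeDIP channel on any array, so that its level is limited by background. At chr7:110400534-110402079, 4 of the 6 probes were not well above background in MeDIP on any LC array.

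On chromosome 9, chr9:38207996-38209666 was the highest with 0.33, 0.61 and 0.49 in CC and 0.37, 0.42 and 0.58 in LC, and the groups overlapped. At that region 5 of the 8 probes were not well above background in MeDIP on any array, and 5 in input on any LC array. The lowest on chromosome 9, chr9:38559084-38560104, had -2.08, -1.99 and -1.93 in CC and -1.65, -1.83 and -1.72 in LC. Its LC arrays were all above its CC arrays, with a difference of 0.27 (standard error 0.06, limma adjusted p = 0.0228). Of its 5 probes, 4 were not well above background in MeDIP on any LC array. On chromosome 10 the highest region, chr10:128548983-128550137, had 0.45, 0.61 and 0.61 in CC and 0.74, 0.43 and 0.34 in LC, with overlap. The lowest, chr10:128624036-128624724, had -2.08, -1.88 and -2.13 in CC and -1.68, -1.87 and -1.83 in LC, a difference of 0.24 that did not pass (limma adjusted p = 0.0519). Window B ran from chr7:113949488-113951159, at 0.36, 0.46 and 0.44 in CC and 0.48, 0.35 and 0.48 in LC, down to chr7:114272497-114274188, at -1.92, -1.72 and -1.89 in CC and -1.64, -1.68 and -1.60 in LC. The latter passed with a difference of 0.20 (standard error 0.06, limma adjusted p = 0.0427), which turned to -0.05 when levels were centered within probe length. Of its 8 probes, 6 were not well above background in MeDIP on any LC array. Window C ran from chr7:114901062-114902659, at 0.17, 0.31 and 0.45 in CC and 0.22, 0.12 and -0.01 in LC, down to chr7:115268295-115269218, at -2.91, -2.54 and -2.38 in CC and -2.25, -2.23 and -2.42 in LC. Neither of these passed (limma adjusted p of 0.0906 and 0.081). At chr7:115268295-115269218, 4 of the 5 probes were not well above background in MeDIP on any LC array.

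Between the groups, 180 of the 585 olfactory regions (30.8%) were called higher in LC by limma at an adjusted p under 0.05, where 10.2% of all 22584 regions were called higher. Lower calls numbered 3 (0.513%), where 8.84% of all regions were called lower. The median difference of LC minus CC was 0.18 over the olfactory regions and 0.02 over all regions, and 535 of the 585 (91.5%) had a difference above 0, against 53.8% of all. By the class of the rule, 62 of the 202 regions of the chromosome 7 windows (30.7%) and 118 of the 383 class II regions (30.8%) were called higher. By window the calls were 67 of 231 on chromosome 2 (29.0%), 31 of 103 on chromosome 9 (30.1%), 20 of 49 on chromosome 10 (40.8%), 36 of 126 in window A (28.6%), 11 of 29 in window B (37.9%) and 15 of 47 in window C (31.9%). The lower calls were 2 on chromosome 2 and 1 in window A. The differences between windows were not tested.

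These calls rested on small differences and on particular arrays. Over the 180 regions the median difference was 0.26 and ranged from 0.15 to 0.54 on the log2 scale, and the smallest adjusted p among the 585 was 0.0178. With the replicate number, which is also the scan day, as a block, limma called 0 of the 585 regions (smallest adjusted p = 0.0508), with 304 higher and 7 lower at an unadjusted p under 0.05. It also called 0 without CC replicate 1 (217 higher unadjusted) and without CC replicate 3 (289 higher unadjusted). In each of these 3 fits 0 of all 22584 regions were called as well. In the main limma fit 332 olfactory regions were higher and 7 lower at an unadjusted p under 0.05, against 4858 and 3883 of all 22584 regions. Such counts over all regions were not taken for these 3 fits, so that their unadjusted counts stand without that share. Without CC replicate 2, 63 olfactory regions were called higher (10.8%, against 2.72% of all regions), and without LC replicate 1, 96 were (16.4%, against 5.17%). Within scan days the median level over the 585 regions differed by 0.35, 0.07 and 0.12 between LC and CC. The first day held the highest LC array and the lowest CC array, and the direction was the same on the other days. Each LC array was hybridized at slide position 1 and each CC array at slide position 3, and position and diet cannot be told apart. In replicates 1 and 2 the LC and CC arrays shared a slide, whereas in replicate 3 they were on different slides. CC replicate 3 was also scanned at 306 volts in the MeDIP channel, against 279 volts on each other array.

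Taken region by region, all LC arrays lay above all CC arrays in 301 regions (51.5%), where 24.1% of all regions had this order, and below them in 6 regions (1.03%), where 20.5% of all did. On each of the 3 scan days LC was above CC in 344 regions (58.8%, against 33.3% of all), and all 180 called regions were among those with LC higher on each day. Among the long-probe regions outside the windows, all LC arrays lay above all CC arrays in 56.6%, and LC was higher on each day in 67.4%. Chromosome 10 had the largest share of regions with separated arrays (32 of 49) and chromosome 2 the smallest (104 of 231). For a region with separated groups an exact two-sided permutation test over 6 arrays gives p = 0.1 at best.

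The share of higher calls moved with probe length outside the windows as well. Long-probe regions outside the windows were called higher in 39.6% of cases (583 of 1472) and lower in 5 cases, with a median difference of 0.21. Regions within 1 Mb of a window were called higher in 12.6% (30 of 238), with a median difference of 0.04. In regions with a mean probe length from 45 to under 50 bases, 3 of 26 olfactory regions (11.5%) and 2.75% of the 14825 others were called higher, and at 50 to under 53 bases the shares were 31.1% (28 of 90) and 16.5%. At 53 to under 55 bases they were 33.6% (41 of 122) and 30.9%, at 55 to under 57 bases 34.1% (63 of 185) and 40.7%, and at 57 bases or more 27.8% (45 of 162) and 37.7%. The olfactory regions thus had the higher share among regions of short probes and the lower share among those of the longest, a contrast that was not tested. Across regions, which share arrays, the difference correlated with mean probe length at 0.16 within the 585 and at 0.64 in the regions outside.

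**Figure D3:**
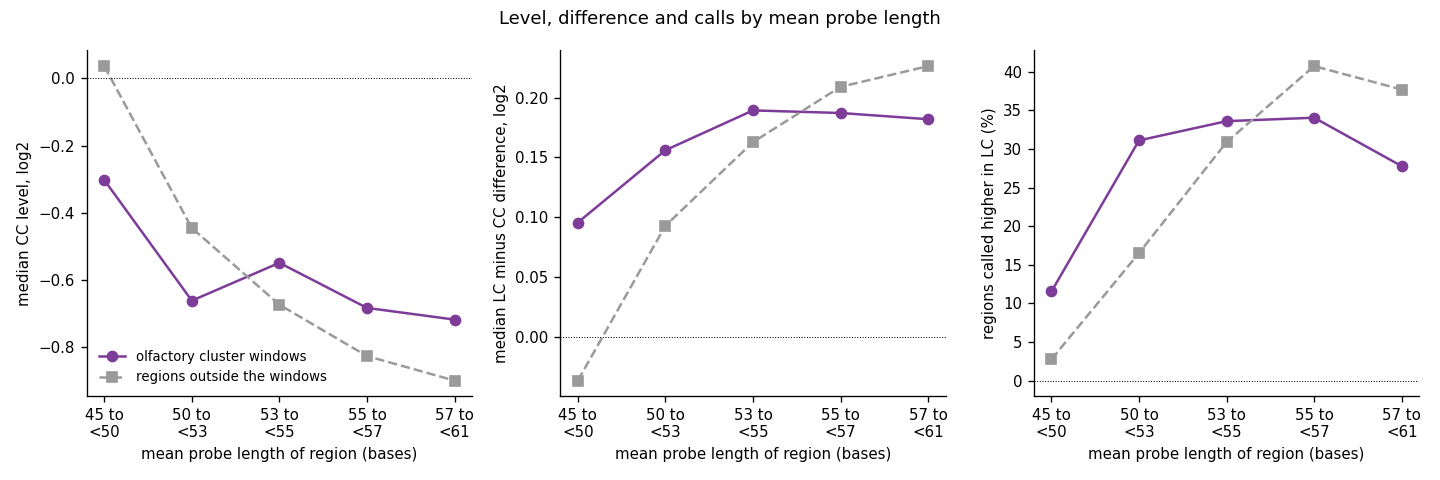
Median CC level (log2), median LC minus CC difference (log2) and percent of regions called higher in LC, by mean probe length of the region in bases, for the olfactory regions (circles) and the regions outside the windows (squares). Outside the windows the median difference goes from -0.04 to 0.23 with probe length, while in the olfactory regions it stays between 0.10 and 0.19.

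When the log ratios were centered within each probe length on each array, 10 olfactory regions were called higher (1.71%, against 1.35% of all regions) and 18 lower (3.08%, against 2.89%), and 8 of those 10 were among the 180. The median difference was then 0.01 in the chromosome 7 windows and -0.03 in the class II windows, and the calls there were 8 higher and 5 lower, and 2 higher and 13 lower. The authors' processed values gave 44 higher regions (7.52%, against 7.89% of all) and 58 lower regions (9.91%, against 9.26%), with medians of 0.03 and -0.04. After removal of the trend with input brightness there were 44 higher regions (7.52%, against 4.97% of all) and 9 lower regions (1.54%, against 8.65%). Loess, quantile normalization and an equal spread on every array left 32, 45 and 31 higher calls (5.47%, 7.69% and 5.30%, against 3.12%, 2.3% and 1.38% of all regions). Lower calls under these settings were 3, 2 and 2 (0.513%, 0.342% and 0.342%, against 6.37%, 4.59% and 4.39% of all regions). Normexp gave 114 higher calls (19.5%, against 20.7% of all) and 12 lower calls (2.05%, against 6.76%). The direction of the median of the class II windows was thus not the same under each scaling.

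The channels were also tested alone, each after quantile normalization between arrays, so that their differences do not add up to that of the ratio. In the input channel 57 olfactory regions were called lower in LC (9.74%), where 7.12% of all regions were, and 9 were called higher (1.54%), where 7.0% of all regions were. Long-probe regions outside the windows were called lower in input in 19.5% of cases and higher in 0.747%. The input difference had a median of -0.06 over the 585 regions and of -0.14 over the 180 regions called higher in the ratio. Of those 180, 176 were below 0 in the input channel and 46 were called lower there, 151 were above 0 in the MeDIP channel, and 159 had a larger difference in input than in MeDIP. The 180 were selected on the ratio, which contains both channels, so that these counts are a description. In the MeDIP channel limma called 0 olfactory regions and 0 on the whole array, with 96 olfactory regions higher and 6 lower at an unadjusted p under 0.05, against 1226 and 1234 of all 22584 regions. The median MeDIP difference was 0.03 over the 585 and also over the 180. The input channel holds DNA that was not selected for methylation.

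**Figure D4:**
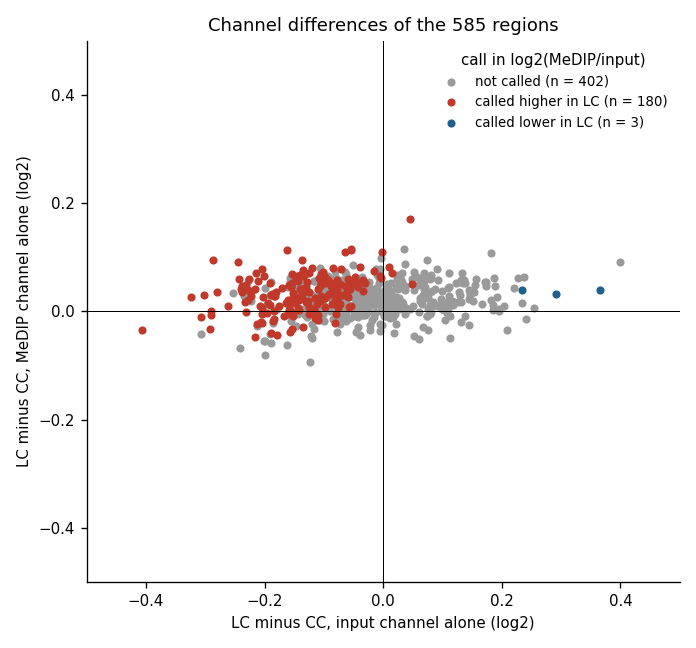
LC minus CC difference of each olfactory region in the input channel (horizontal, log2) and in the MeDIP channel (vertical, log2), on equal axes; colors mark the call in the ratio. The 180 regions called higher (red) spread to the left along the input axis and stay close to 0 on the MeDIP axis, and the 3 called lower (blue) lie to the right.

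Brightness moved with the groups in these regions as on the whole array. Of the 4115 probes, 61.9%, 72.6% and 71.7% passed the scanner software's background mark in the input channel in LC and 82.2%, 79.9% and 83.9% in CC, with no overlap. Over the probes of all regions the shares were 89.2%, 94.5% and 94.3% in LC and 97.2%, 96.9% and 97.7% in CC, and in the long-probe regions 65.0%, 78.0% and 77.0% in LC and 87.6%, 85.7% and 89.2% in CC, again without overlap. In the MeDIP channel the shares were 46.9%, 47.0% and 46.5% in LC and 46.3%, 44.9% and 46.4% in CC. At least 1 probe was not above background in input on any LC array in 453 of the 585 regions (77.4%), against 58.1% for the CC arrays and 23.8% for LC over all regions tested. In MeDIP the share was 98.1% for LC and 97.9% for CC, so that most of these levels include probes that give only a bound. All probes of a region were below that mark in MeDIP in 19 regions, of which 5 were called higher and 1 lower, and the values of those regions are limited by background. With only the probes above background in input on all arrays, 506 olfactory regions could be tested, and 266 of them (52.6%) were called higher, where 17.1% of all regions then were.

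The largest differences among the called regions are given array by array. In the chromosome 7 windows, chr7:115509939-115511429 in window C had -0.59, -0.78 and -0.75 in LC and -1.20, -0.98 and -1.17 in CC. Every LC array was above every CC array, with a difference of 0.41 (standard error 0.07, limma adjusted p = 0.0188). Taken alone, its channels differed by -0.29 in input and 0.09 in MeDIP. In window A, chr7:111053567-111055157 was nearly constant among the LC mice, with -1.1, -1.09 and -1.13 against -1.60, -1.43 and -1.48 in CC. LC exceeded CC by 0.40 (standard error 0.05, limma adjusted p = 0.0178). Near its far end, chr7:111850783-111852382 had -0.47, -1.04 and -0.93 in LC and -1.30, -1.14 and -1.19 in CC. Here LC replicate 1 stood above the other LC arrays, and the difference of 0.40 had a wider standard error of 0.12 (limma adjusted p = 0.0493). Without that array it was 0.22, and with normexp and the authors' processed values it was 0.064 and 0.062 and did not pass. In this region and the preceding one, 5 of 8 probes were not well above background in MeDIP on any LC array. At the end of window C, chr7:116025587-116026261 had -0.64, -0.63 and -0.70 in LC and -1.22, -1.01 and -0.93 in CC (limma adjusted p = 0.0188). All 4 probes failed the background mark in input on each LC array and in MeDIP on each array of both groups, so that no difference is given, and its direction turned with normexp and with the values processed by the authors.

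Among the class II windows, chr10:129340566-129341072 had the largest difference of the 585 and, unlike most of them, a level above 0. It had 1.32, 0.97 and 0.98 in LC and 0.44, 0.67 and 0.54 in CC, a difference of 0.54 (standard error 0.09, limma adjusted p = 0.0188). Its 3 probes were all 60 bases long, and its direction turned after normexp (-0.08). The difference was 0.01 in the authors' processed values and did not pass. Taken alone, its channels differed by -0.32 in input and 0.03 in MeDIP, and none of its probes was above background in input on every array. On chromosome 2, chr2:85707498-85708003 had 0.46, -0.11 and -0.14 in LC and -0.40, -0.50 and -0.28 in CC. LC replicate 1 was far above the other LC arrays. The difference of 0.47 (standard error 0.14, limma adjusted p = 0.0427) was 0.27 without that array, and turned to -0.04 after normexp and to -0.03 in the authors' processed values. In this region 2 of the 3 probes were not well above background in MeDIP on any array, and 2 in input on any LC array. The 8 probes of chr2:87671922-87673651 gave -0.69, -1.03 and -0.69 in LC and -1.39, -1.24 and -1.16 in CC, a difference of 0.46 (standard error 0.09, limma adjusted p = 0.02). It was 0.074 with normexp and 0.03 in the authors' processed values and passed in neither, and 6 of its probes were not well above background in MeDIP on any LC array. A smaller spread was seen at chr2:86076492-86076958, with 0.72, 0.56 and 0.58 in LC and 0.23, 0.26 and 0.18 in CC, and a difference of 0.40 (standard error 0.06, limma adjusted p = 0.0178).

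Lower calls were few. On chromosome 2, chr2:86731885-86732625 had -0.62, -0.38 and -0.26 in LC and -0.05, 0.02 and -0.14 in CC (limma adjusted p = 0.0261), but all 4 of its probes were not well above background in MeDIP on any array. The LC arrays at chr2:87533605-87535296 were at -0.05, -0.04 and 0.07 and the CC arrays at 0.17, 0.35 and 0.32. The LC arrays were all lower, with a difference of -0.29 (standard error 0.06, limma adjusted p = 0.0203), and this region was lower in LC also with the authors' processed values (-0.33) and when centered within probe length (-0.53). In window A, chr7:111701212-111701873 had 0.20, 0.35 and 0.26 in LC and 0.41, 0.48 and 0.53 in CC, a difference of -0.20 (standard error 0.06, limma adjusted p = 0.0369). With the median in place of the mean over its probes the difference was 0.00047. Next in order of p in the chromosome 7 windows was chr7:109835356-109836695, at 0.37, 0.28 and 0.32 in LC and 0.47, 0.45 and 0.51 in CC, which did not pass (limma adjusted p = 0.0513). At chr2:87533605-87535296 and chr7:111701212-111701873 the input channel was higher in LC, by 0.37 and 0.23, and the MeDIP channel differed by 0.04 in both.

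**Figure D5:**
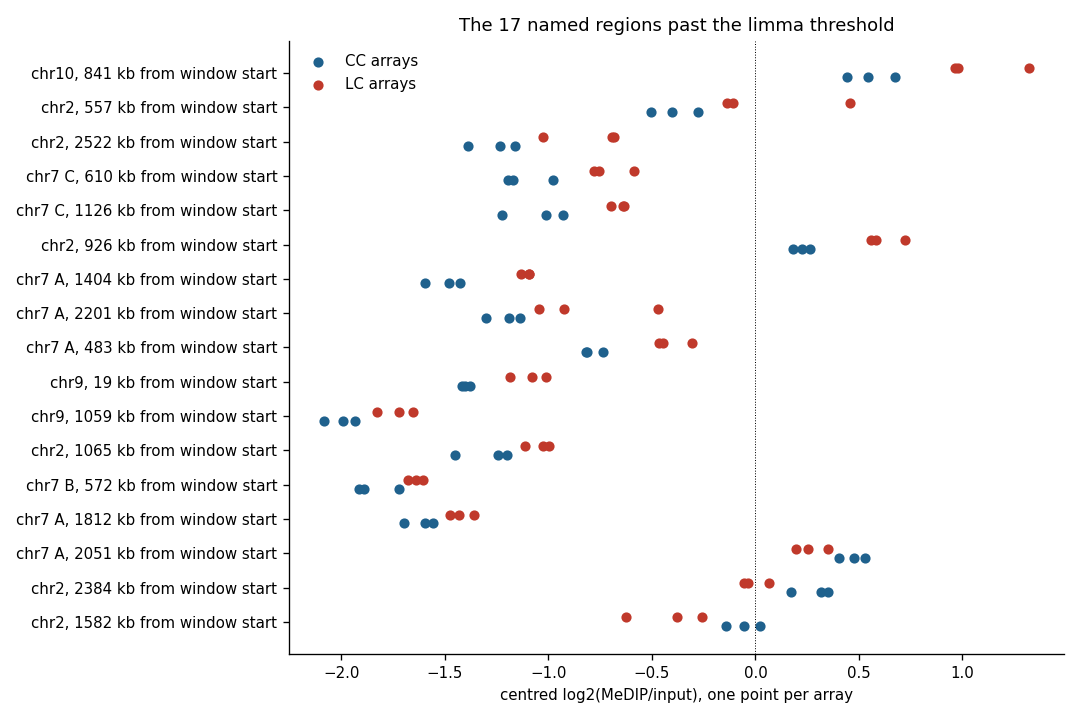
Centered log2(MeDIP/input) of the 17 named regions past the limma threshold, with 3 CC arrays (blue) and 3 LC arrays (red) per region, ordered by difference; regions are labeled by window and distance from its start in kb. The LC arrays lie to the right of the CC arrays in 14 regions and to the left in 3.

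In the KS peak search, in which the LC minus CC differences of neighboring probes in a 750 bp window are ranked among all probes of the array, 41 olfactory regions had a hypermethylated peak in LC (7.01%), where 2.2% of all regions had one. A hypomethylated peak was found in 1 olfactory region (0.171%), on chromosome 9, where 4.1% of all regions had one. Chromosome 2 had 23 of the hypermethylated peaks (9.96%), window A had 7 (5.56%), chromosome 9, chromosome 10 and window C had 3 each, and window B had 2. Long-probe regions elsewhere had hypermethylated peaks in 10.4% of cases. The balance of the peaks turned with the scaling. With the authors' processed values hypermethylated peaks lay in 12 regions of the chromosome 7 windows and 11 class II regions and hypomethylated peaks in 19 and 63, respectively. With normexp the counts were 8 and 6 hypermethylated and 9 and 25 hypomethylated, and with centering within probe length 1 and 3, and 1 and 11. Of the 41 regions, 30 were also called higher by limma, which rests on the same differences. The longest peaks in called regions had 6 probes. They were at chr2:87671922-87673651, described above, and at chr7:110133178-110134825 in window A, with -0.31, -0.44 and -0.47 in LC and -0.81, -0.73 and -0.82 in CC. The latter differed by 0.38 (standard error 0.06, limma adjusted p = 0.0178). At chr7:115509939-115511429, described above, and at chr2:86215076-86216866 the peak had 4 probes, and the latter had -1.03, -1.11 and -1.0 in LC and -1.45, -1.25 and -1.20 in CC (difference 0.25, limma adjusted p = 0.0347). At chr2:86215076-86216866, 7 of the 9 probes were not well above background in MeDIP on any LC array. The KS score treats probes as the unit and holds no spread between mice.

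Among the regions with the most probes, 1 per class was taken by the rule, and both were higher in LC. In window A, chr7:111462258-111465173 with 12 probes over 2916 bp had -1.36, -1.43 and -1.48 in LC and -1.70, -1.60 and -1.56 in CC. The groups did not overlap, and LC exceeded CC by 0.19 (standard error 0.05, limma adjusted p = 0.0392). On chromosome 9, chr9:37519376-37521105 with 9 probes over 1730 bp, the first by start coordinate of the class II regions tied at this number, had -1.01, -1.18 and -1.08 in LC and -1.42, -1.40 and -1.38 in CC, a difference of 0.31 (standard error 0.05, limma adjusted p = 0.0188). Its input channel differed by -0.14 and its MeDIP channel by 0.07. Of its 9 probes, 7 were not well above background in MeDIP on any LC array.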

How the data were processed

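The deposited data are 6 array files written by Agilent's Feature Extraction software (version 11.0.1.1) and a table of values that the authors processed. Per the file headers, the processed intensity of each dye had been background-subtracted and scaled before deposit. The deposited log10 ratio served only to check the direction (correlation of 0.999 or more with the log2 ratio used here on every array). The values in the authors' table have a log2 scale, and their normalization is not given in the sources used here. Their correlation with the scanner ratios was 0.866 to 0.905, and they served as an alternative. Flags for outlier and background spots, which have no scale, were also read.

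Log2 ratios of processed Cy5 over Cy3 were computed without control features and without 362 outlier probes, centered on each array's median, and averaged over the probes of a region. All 22584 regions were tested in limma (3.58.1, under R 4.3.3) by lmFit and eBayes for LC minus CC without covariates (Benjamini-Hochberg over all regions, threshold 0.05). No loess or quantile step was applied in the main setting, since many regions may shift one way. Per the study's methods, the offspring were female and came 1 per litter. For KS peaks, an exact one-sided score was computed for 750 bp windows with at least 3 probes, and peaks needed 2 or more neighboring probes of 1 region that reached a score of 2. Scripts were tested on simulated data. The windows, the class labels and the rules were chosen with earlier results of these data known. Regions were named as the highest and lowest in CC per window, up to 4 called regions of largest difference per class and direction (the 2 of smallest p where under 2 were called), the region with the most probes and up to 2 with the longest peaks per class. Alternatives were other background correction and normalization, the authors' values, probe length, input brightness, dim probes, blocks, the methods' t-test, other variance, region and peak settings, and each array left out.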

Additional observations from a re-analysis of the deposited data

How the results depend on the processing

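The higher calls of the olfactory regions depended on the arrays and on the scaling, while their median difference stayed above 0 in the chromosome 7 windows under every alternative run. Counts are given first for the chromosome 7 windows (62 higher and 1 lower in the setting reported) and then for the class II windows (118 and 2), and the cause of each change was not tested. The smallest difference called higher was 0.15 on the log2 scale, and most regions held MeDIP probes that were not above background, which also limits the values of chr7:116025587-116026261 and chr2:86479387-86479856.

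The replicate numbers are shared by the groups, and they are not known to pair the mice. Deviations from the group means on arrays of the same number correlated at -0.16, 0.11 and -0.0008 across regions. With 3 arrays per group, such correlations cannot decide whether a day or slide effect is shared. A replicate block (also the scan day) left 0 higher and 0 lower in both sets (107 and 4, and 197 and 3, at an unadjusted p under 0.05). The slide as a block gave 0 in all 4 counts (unadjusted, 83 and 2, and 165 and 2). By the methods' t-test there were 66 and 2, and 110 and 3, at an unadjusted p under 0.05 and 0 in all after Benjamini-Hochberg adjustment. For the ratio, unadjusted counts here and with arrays left out stand without a share over all regions, which was counted in the main fit only. In the input channel the block moved no count by over 1.5 times, and the median differences of the ratio were the same with it.

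Normexp gave 3 lower calls in the chromosome 7 windows, 55 higher and 9 lower in class II, median differences of 0.065 and 0.0071, levels in CC of -0.18 and -0.12, hypomethylated peaks in 9 and 25 regions and hypermethylated peaks in 6 class II regions. Loess gave 17 and 15 higher calls, median differences of 0.077 and 0.051, levels of -0.062 and 0.11, hypermethylated peaks in 7 and 10 regions and hypomethylated peaks in 4 class II regions. Quantile normalization gave 21 higher and 0 lower, and 24 higher. An equal spread on every array gave 15 higher and 0 lower, and 16 higher. The authors' processed values gave 26 higher and 11 lower, and 18 higher and 47 lower, median differences of 0.029 and -0.035, hypomethylated peaks in 19 and 63 regions and hypermethylated peaks in 11 class II regions. Probes above background in input gave 98 higher and 2 lower, 1 lower in class II, levels of -0.70 and -0.79, hypermethylated peaks in 5 and 4 regions and 0 hypomethylated in class II. Centering within probe length gave 8 higher and 5 lower, and 2 higher and 13 lower, median differences of 0.011 and -0.030, levels of 0.085 and 0.28, hypermethylated peaks in 1 and 3 regions and hypomethylated in 1 and 11. With the replicate block added to it the calls were 8 and 10, and 5 and 34. Removal of the brightness trend gave 23 higher and 2 lower, and 21 and 7, median differences of 0.075 and 0.053, hypermethylated peaks in 7 and 13 regions and hypomethylated in 6 class II regions. The median over probes gave 22 and 2, and 23 and 1. The trend and robust fit gave 2 lower calls in the chromosome 7 windows, and a minimum of 5 probes gave 1 lower call in class II.

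For peaks, reported as 12 and 29 hypermethylated and 0 and 1 hypomethylated regions, a 1000 bp window gave 20 and 56 hypermethylated and 0 hypomethylated in class II, and a score of 3 gave 1 and 4, and 0 in class II. In the input channel, reported as 25 lower and 1 higher, and 32 and 8, median centering in place of quantile normalization gave 45 and 3, and 91 and 3.

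Leaving out 1 array at a time, higher calls ranged from 0 to 76 and from 0 to 154, lower calls from 0 to 2 and from 0 to 3, hypermethylated peaks from 9 to 23 and from 20 to 40, and hypomethylated peaks from 0 to 1 and from 1 to 1. Median differences ranged from 0.13 to 0.19 and from 0.14 to 0.20, and levels in CC from -0.66 to -0.61 and from -0.66 to -0.59. In the input channel lower calls ranged from 6 to 28 and from 1 to 31, and higher calls from 0 to 4 and from 2 to 14. No ratio call was left without CC replicate 1 or without CC replicate 3 (unadjusted, 76 and 141, and 96 and 193 higher), and the hypermethylated peaks of the chromosome 7 windows were at their highest without CC replicate 2.

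Of the named regions, chr7:113949488-113951159 turned direction most often, with -0.11 in the authors' processed values, -0.18 when centered within probe length with and without the block, -0.12 without the brightness trend, -0.13 after loess, -0.20 with the median over probes, -0.093 after normexp, -0.0041 with probes above background in input and -0.014 to 0.060 with arrays left out. The authors' processed values turned chr7:116025587-116026261 (-0.11), chr7:115268295-115269218 (-0.026), chr7:109846757-109847206 (0.0045), chr2:85707498-85708003 (-0.033) and chr2:87475415-87476260 (-0.059). Normexp turned chr10:129340566-129341072 (-0.078), chr7:116025587-116026261 (-0.087), chr2:87475415-87476260 (-0.10) and chr2:85707498-85708003 (-0.038). Centering within probe length, with and without the block, turned chr2:86479387-86479856 (-0.045) and chr7:114272497-114274188 (-0.047). An equal spread turned chr2:86479387-86479856 (-0.073), chr7:110400534-110402079 (-0.11) and chr9:38207996-38209666 (0.024), which quantile normalization (0.016) and left-out arrays (-0.093 to 0.047) also turned. The median over probes turned chr7:111701212-111701873 (0.00047) and chr10:128624036-128624724 (-0.13), and chr10:128548983-128550137 turned with the slide block (0.056) and left-out arrays (-0.17 to 0.030).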
